A study of Homo sapiens with 18 samples.

Results

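Mucins are the large glycoproteins that coat epithelia, and 10 of their genes were described here: the secreted gel-forming MUC5AC, MUC5B and MUC2 and the membrane-bound MUC1, MUC3A, MUC4, MUC13, MUC15, MUC16 and MUC20. They were chosen by gene symbol, as the rows of 2 gene count tables whose Ensembl identifier carries one of these names in the GENCODE annotation of GRCh38, which gave 10 of 61541 genes. A mucin protein is built around tandem repeats rich in serine and threonine, to which O-linked sugars are added in the Golgi. Gel-forming mucins are joined end to end through cysteine-rich domains and released from goblet and gland cells as mucus, with MUC5AC and MUC5B the main ones of the airway and MUC2 that of the gut. Membrane mucins stay anchored by a transmembrane segment, form the cell-surface glycocalyx and pass signals through short cytoplasmic tails.

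The libraries came from A549, a wild-type human lung adenocarcinoma line used as a model of non-small cell lung cancer, grown in high-glucose medium with serum. The short-chain fatty acid salt sodium propionate (SP) was given at 5 mM for 3 h to 12 days. The first table, called the long-exposure table below, holds untreated cells at 3 days (Control_3D), cells with SP for 3 days (SP_3D) and cells with SP for 12 days (SP_12D), and the second, the short-exposure table, holds untreated cells at 24 h (Control_24H) and cells with SP for 3 h (SP_3H) and 24 h (SP_24H). Each group had 3 libraries of the 1 cell line. The study calls those of the short-exposure table biological replicates, but nothing says whether any were separate cultures, so the p-values measure only the spread between these libraries, which may be technical. SP_3H and SP_24H share Control_24H, SP_3D and SP_12D share Control_3D, and neither SP_3H nor SP_12D has an untreated control of its own time. The question asked of every comparison was which mucins differ from untreated cells after SP.

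Each library held 14187401 to 43765330 counted reads. The epithelial markers KRT8, KRT18, KRT19, EPCAM and CDH1 summed to 5999 to 15351 CPM (reads relative to library size, scaled by edgeR's TMM factors) in the 18 libraries. Of these, 5 of 5 passed as higher in SP_24H, SP_3D and SP_12D, beside 16.8%, 25.2% and 26.4% of all genes. The 6 fibroblast markers summed to 6.67 to 22.1 CPM in the control libraries and to 35.9 to 90.4 CPM in those of SP_24H, SP_3D and SP_12D. Of those tested, 2 of 4 passed as higher in SP_24H and 2 of 3 in both SP_3D and SP_12D. The 3 endothelial markers summed to at most 2.88 CPM, and of the 4 blood markers, which reached 37.4 CPM in SP_3D, CD3E had no read in any library. The 1 blood marker tested passed as higher in SP_24H and SP_3D, and 1 of 2 tested endothelial markers as lower in SP_3D and SP_12D. The part of these marker changes in the mucin results was not tested. In the short-exposure table, Control_24H replicate 1 and SP_3H replicate 3 were low in GC-rich genes. Their GC tilt (the median log2 deviation of the 20% of genes richest in G and C minus that of the poorest 20%, mucins left out) was -0.81 and -0.53, and -0.43 in Control_24H replicate 2, against 0.12 to 0.61 in SP_24H and -0.34 to 0.26 over the long-exposure table. Control_24H replicate 3 stood at 0.37, within the SP_24H range, and SP_3H replicates 1 and 2 at -0.03 and 0.18.

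The gel-forming mucins, MUC1 and MUC4 are GC-rich, and MUC20, MUC3A and MUC16 lie nearer the middle of the tested genes. The exons of MUC5B hold 64.5% G and C, more than 95.6% of the tested genes, those of MUC2 61.6%, MUC5AC 60.3%, MUC1 58.6% and MUC4 57.4%, and those of MUC20, MUC3A and MUC16 50.3% to 52.1%. MUC13 (44.7%) and MUC15 (36.1%) are the GC-poor members. Starts of 6 of the 10 genes were found in the RefSeq promoter table (GRCh38.p14), which gives 250 bases before to 50 bases after a start site. MUC5AC, MUC5B, MUC15 and MUC20 were not among them. Shown here are the 4 matched genes that passed the test at 3 and 12 days, of which MUC1 and MUC2 fell and MUC3A and MUC16 rose. Where RefSeq gives more than 1 start, as for MUC1 and MUC16, the one nearest the GENCODE gene start was taken. Each is written 5′ to 3′ on the strand of the gene, and capitals mark matches to TATAAA (the TATA box) or GGGCGG (the GC box bound by Sp factors), searched on both strands with overlaps counted.
MUC1, chr1:155192866-155193165, minus strand: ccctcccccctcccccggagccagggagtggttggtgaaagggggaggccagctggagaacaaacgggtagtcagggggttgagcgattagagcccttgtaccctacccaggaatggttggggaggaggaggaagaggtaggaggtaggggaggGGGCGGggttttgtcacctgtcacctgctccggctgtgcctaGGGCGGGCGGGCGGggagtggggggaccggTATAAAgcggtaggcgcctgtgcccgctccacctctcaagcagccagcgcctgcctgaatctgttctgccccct
MUC2, chr11:1074624-1074923, plus strand: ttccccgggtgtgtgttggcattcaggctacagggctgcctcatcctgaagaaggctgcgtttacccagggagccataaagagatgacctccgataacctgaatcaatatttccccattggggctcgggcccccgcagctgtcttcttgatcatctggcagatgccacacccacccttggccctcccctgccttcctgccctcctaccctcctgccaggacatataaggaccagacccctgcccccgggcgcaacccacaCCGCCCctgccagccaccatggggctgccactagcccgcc
MUC3A, chr7:100949284-100949583, plus strand: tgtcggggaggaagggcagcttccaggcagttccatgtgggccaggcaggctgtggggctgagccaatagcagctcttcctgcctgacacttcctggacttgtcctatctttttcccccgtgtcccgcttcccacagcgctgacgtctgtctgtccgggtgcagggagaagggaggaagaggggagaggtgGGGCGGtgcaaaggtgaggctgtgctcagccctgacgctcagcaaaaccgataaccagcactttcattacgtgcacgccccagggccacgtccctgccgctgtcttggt
MUC16, chr19:9010360-9010659, minus strand: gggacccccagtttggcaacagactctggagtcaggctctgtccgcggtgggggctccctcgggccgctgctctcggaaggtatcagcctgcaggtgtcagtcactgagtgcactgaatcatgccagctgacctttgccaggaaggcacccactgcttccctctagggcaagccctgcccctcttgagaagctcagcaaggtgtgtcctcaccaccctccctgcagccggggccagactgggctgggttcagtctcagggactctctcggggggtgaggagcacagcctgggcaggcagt
The MUC1 window holds 1 TATAAA, whose first base lies 24 bases before the start site, and 4 matches to GGGCGG, 3 of them overlapping one another. The windows of MUC2 and MUC3A hold 1 match to GGGCGG each and no TATAAA, and that of MUC16 holds neither. Of all 35116 promoter windows in the table, 11.5% hold TATAAA and 44.95% hold GGGCGG. The fallers and the risers were alike in base composition, with 65.7% G and C for MUC1, 62.0% for MUC2, 61.7% for MUC3A and 64.0% for MUC16.

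After long exposure to SP the secreted MUC5AC and MUC2 and the membrane mucin MUC1 fell, and the membrane mucins MUC3A and MUC16 rose. Of 9 members tested in SP_3D against Control_3D, 3 passed as lower (MUC5AC, MUC1 and MUC2) and 2 as higher (MUC16 and MUC3A), at an adjusted p below 0.05 in edgeR's quasi-likelihood test. The background was high, since 23.3% of the 17775 tested genes passed as lower and 25.2% as higher, and 8.44% passed the stricter thresholds of adjusted p below 0.0001 with a fold change of at least 2. In SP_12D, 4 passed as lower (the same 3 and MUC5B) and 2 as higher (MUC16 and MUC3A), against a background of 23.4% lower, 26.4% higher and 9.11% past the stricter thresholds. With offsets for GC content and length, the background turned to 34.7% lower and 20.6% higher at 3 days and to 33.2% lower and 21.9% higher at 12 days, and the median change of all genes moved from -0.02 to -0.14 and from -0.0037 to -0.11. MUC15 was tested nowhere. Loss of mucin RNA per cell and a smaller share of mucin-making cells cannot be told apart in these bulk libraries.

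**Figure D1:**
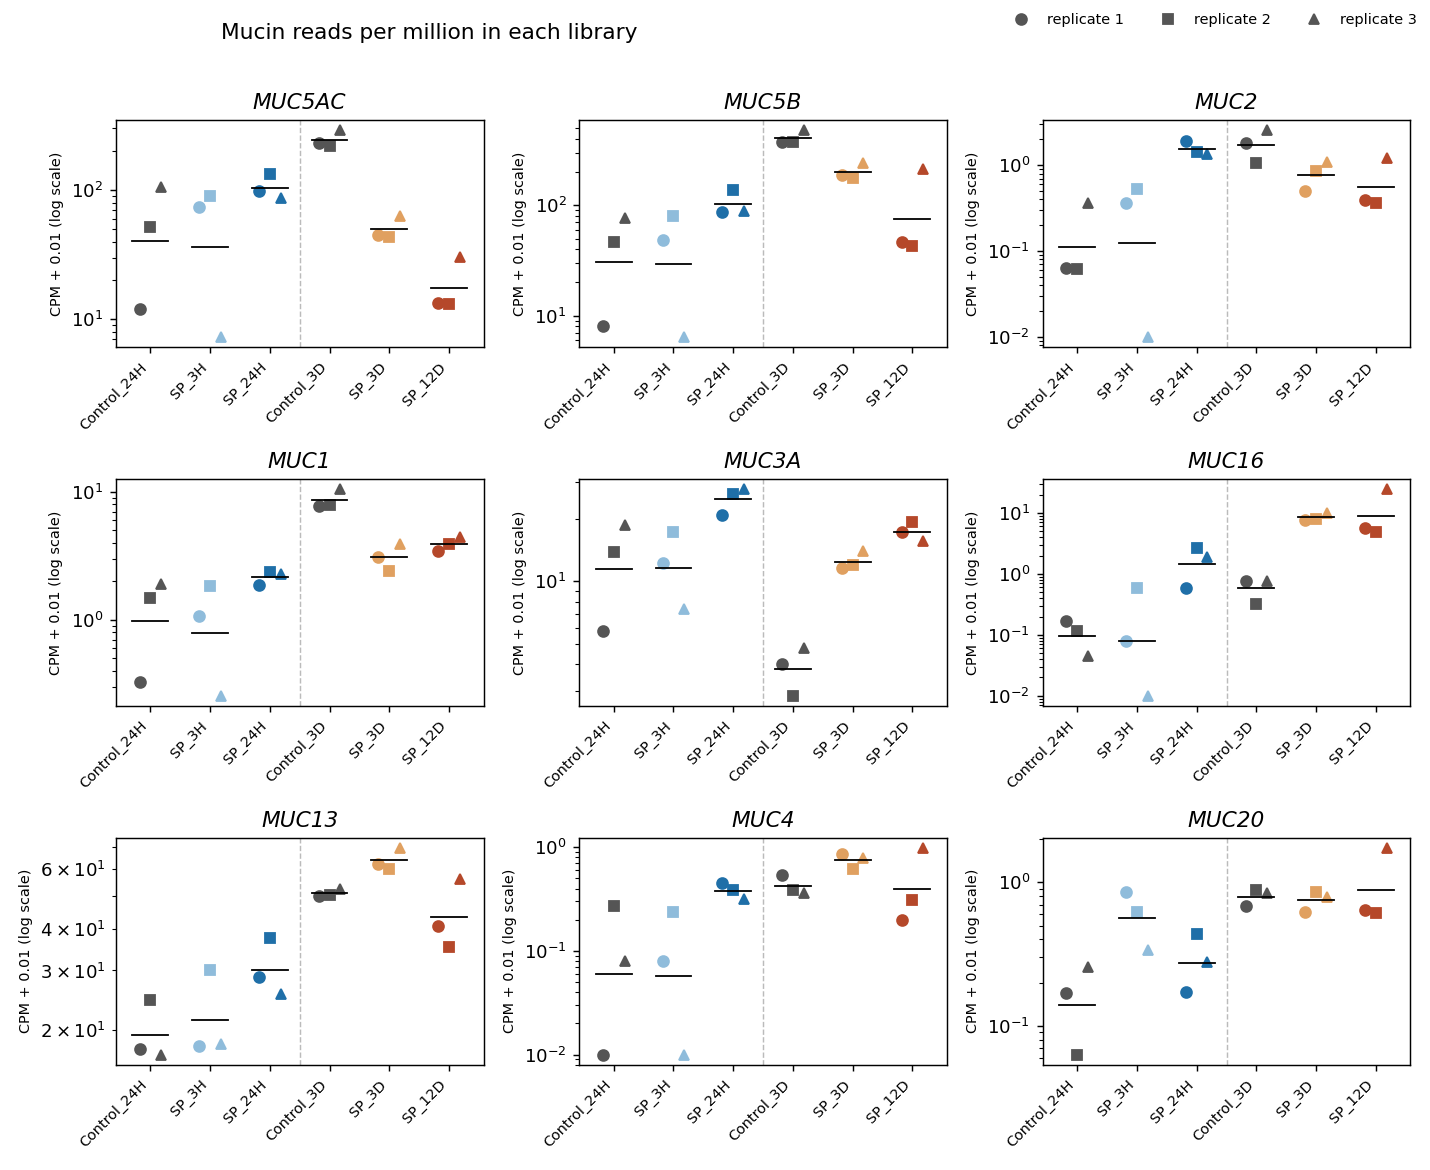
CPM of 9 mucin genes in each of the 18 libraries, on a log axis after adding 0.01, with a marker shape for each replicate and a black line at the mean of the log values of each group. MUC5AC lies at 218.5 to 289.5 CPM in Control_3D and at 13.1 to 30.4 CPM in SP_12D, whereas MUC16 rises from at most 0.768 to at least 4.89 CPM between the same groups.

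MUC5AC (ENSG00000215182, chr11:1157953-1201138, plus strand, 49 exon blocks), the inducible gel-forming mucin of airway goblet cells, had the largest fall among the members. It stood at 230.5, 218.5 and 289.5 CPM in Control_3D (4821, 3487 and 4898 reads), at 45.2, 43.1 and 62.9 CPM in SP_3D, and at 13.3, 13.1 and 30.4 CPM in SP_12D. The 3 groups did not overlap and followed the order of exposure, with SP_12D replicate 3 highest in its group. The log2 fold change against Control_3D was -2.29 ± 0.33 (SE, n = 3 libraries a group; edgeR adjusted p = 0.000784) at 3 days and -3.68 ± 0.36 (edgeR adjusted p = 7.74e-05) at 12 days. The difference between SP_12D and SP_3D, -1.40 ± 0.34, had an edgeR adjusted p of 0.0510, in a comparison where 8.1% of all genes passed. Without SP_12D replicate 3, the highest of its group, that difference was -1.95 and passed. In that fit 13.6% of all genes passed as higher and 14.5% as lower. With all libraries the difference passed in 5 of 9 alternatives, among them DESeq2, the replicate block and the GC and length offsets.

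MUC5B (ENSG00000117983, chr11:1223066-1262172, plus strand), the constitutive airway gel former and the member with most reads, fell less evenly. It was counted at 374.5, 372.4 and 477.5 CPM in Control_3D, 189.6, 178.3 and 242.2 CPM in SP_3D, and 46.9, 43.1 and 211.7 CPM in SP_12D. SP_3D lay wholly below the controls, while SP_12D replicate 3 stood at the SP_3D level and the other 2 libraries of its group far below. The fitted change was -1.005 ± 0.62 at 3 days (edgeR adjusted p = 0.231), which did not pass, and -2.01 ± 0.64 at 12 days (edgeR adjusted p = 0.0385). Without SP_12D replicate 3 the 12-day change was -3.20 (edgeR adjusted p = 6.31e-16) and the 3-day change, of the same size as before at -1.01, passed with an edgeR adjusted p of 3.16e-09. The 12-day call was lost when any 1 of the other 8 libraries of the table was left out (adjusted p up to 0.0878), and also without the low-count filter or SP_3D in the fit. The 3-day change passed with only its 2 groups in the fit. With GC and length offsets MUC5B passed at both times, at -1.63 and -2.53. MUC5B shares 434 exon bases with the antisense gene MUC5B-AS1, and strandedness of the counting is not given in the sources used here.

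The balance of the 2 airway gel formers was also read within each library, which needs no scaling between libraries. The 2 genes differ in GC content (64.5% for MUC5B and 60.3% for MUC5AC), and the part of the GC tilt in the ratio was not tested. Control_3D held 0.616, 0.587 and 0.606 MUC5AC reads per MUC5B read. The ratio was 0.239, 0.242 and 0.260 in SP_3D and 0.283, 0.303 and 0.143 in SP_12D. All 6 SP libraries lay below all 3 controls. The mean log2 ratio was lower by -1.29 at 3 days and by -1.38 at 12 days, each with a two-sided exact permutation p of 0.1 (0.2 after adjustment over 4 comparisons), the smallest that 3 against 3 libraries can give. At 24 h the ratio was 1.5, 1.11 and 1.37 in Control_24H and 1.11, 0.956 and 0.979 in SP_24H, with a difference in log2 of -0.38 (exact permutation p = 0.2). The ratio was lower in SP_24H in 3 of 3 same-numbered pairs, for which an exact paired permutation test, added after the values were seen, gave p = 0.25, the smallest it can give. At 3 h it was 1.52, 1.13 and 1.14 (difference -0.07, exact permutation p = 1). The untreated cells differed between the tables too, with a mean of 1.33 ± 0.20 in Control_24H and 0.603 ± 0.015 in Control_3D (SD, n = 3), where table and time in culture cannot be told apart.

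**Figure D2:**
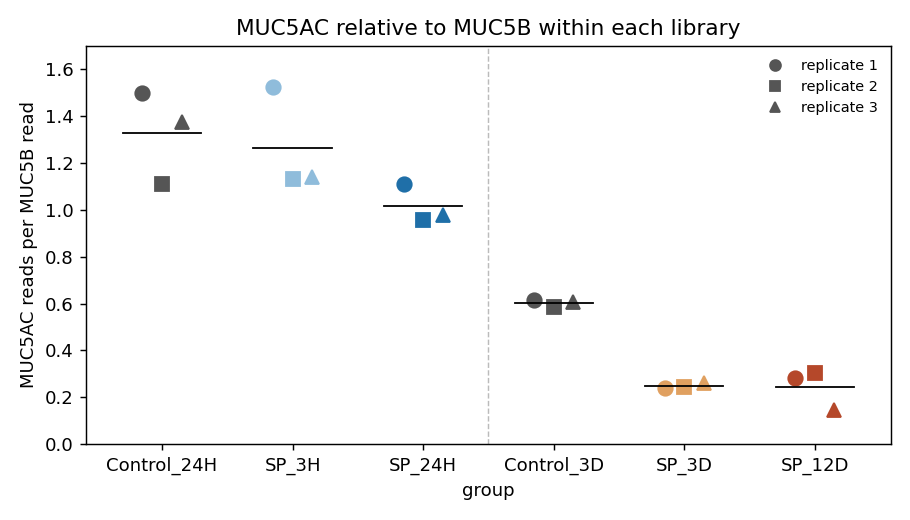
MUC5AC reads per MUC5B read in each library (points, shaped by replicate) with the group mean as a black line, on a linear axis from 0. Control_3D libraries sit at 0.587 to 0.616 and the 6 SP libraries beside them at 0.143 to 0.303, while the short-exposure libraries on the left lie between 0.956 and 1.52.

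MUC2 (ENSG00000198788, chr11:1074875-1110511, plus strand), the intestinal gel former, was rare in A549. It had 38, 17 and 43 reads in Control_3D, 8, 14 and 18 in SP_3D and 6, 7 and 27 in SP_12D. In CPM the controls lay at 1.07 to 2.54, SP_3D at 0.488 to 1.08 and SP_12D at 0.349 to 1.20, so that both SP groups touched the lowest control. The fitted changes passed at -1.16 ± 0.44 (edgeR adjusted p = 0.0415) and -1.43 ± 0.44 (edgeR adjusted p = 0.0146). The 3-day call was lost with upper-quartile scaling and without Control_3D replicate 1 or 3 or SP_3D replicate 1 or 2 (adjusted p up to 0.180), and the 12-day call without Control_3D replicate 3 (adjusted p = 0.0824). Without SP_12D replicate 3 the 12-day change was -2.32.

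The gel-forming genes are neighbours on the short arm of chromosome 11, and the genes around them were looked at too. Of the 8 genes looked at there (CHID1, AP2A2, MUC6, MUC2, MUC5AC, MUC5B, TOLLIP and BRSK2), 2 passed as lower and 2 as higher at 3 days, and 3 as lower and 1 as higher at 12 days, beside 23.3% and 25.2% of all genes at 3 days and 23.4% and 26.4% at 12 days. The lower ones were MUC5AC and MUC2 at both times and MUC5B at 12 days. BRSK2, a kinase gene beyond MUC5B, went from 13.8 ± 1.45 CPM (SD, n = 3) to 26.6 ± 1.5 at 3 days and 28.1 ± 1.35 at 12 days, with log2 fold changes of 0.95 and 1.03. CHID1, a chitinase-like gene, passed as higher at 3 days by 0.42 and changed by 0.22 ± 0.10 at 12 days, without passing. TOLLIP, next to MUC5B, changed by -0.07 and -0.05 and AP2A2 by 0.15 and 0.07, and neither passed. The gastric mucin MUC6, next to MUC2, stood at 2.5 ± 0.31 CPM in Control_3D and changed by -0.36 ± 0.33 and -0.18 ± 0.32, without passing. At 24 h, 4 of the 7 tested there passed as higher, beside 16.8% of all genes, namely MUC2, BRSK2 (0.77), AP2A2 (0.46) and CHID1 (0.31).

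Among the membrane mucins, MUC1 (ENSG00000185499, chr1:155185824-155192916, minus strand), whose tail is phosphorylated by growth factor receptors, was the one that fell. It was at 7.79, 7.83 and 10.5 CPM in Control_3D, 3.11, 2.38 and 3.89 in SP_3D, and 3.41, 3.89 and 4.39 in SP_12D. Every SP library lay below every control, and the SP groups overlapped each other. The log2 fold change was -1.47 ± 0.19 at 3 days (edgeR adjusted p = 1.39e-05) and -1.15 ± 0.19 at 12 days (edgeR adjusted p = 9.86e-05), both past the stricter thresholds, and neither call was lost in any alternative at the 0.05 threshold. The 12-day minus 3-day difference of 0.33 ± 0.21 did not pass.

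MUC16 (ENSG00000181143, chr19:8848844-9010390, minus strand), the longest member with 44165 exon bases and the carrier of an ovarian cancer serum epitope, rose most. Its reads were 16, 5 and 13 in Control_3D, 126, 129 and 168 in SP_3D, and 90, 98 and 553 in SP_12D. The groups with SP were well apart from the controls, and SP_12D replicate 3 stood far above its group in CPM (24.5 against 5.69 and 4.89). The fitted log2 change was 3.75 ± 0.90 at 3 days (edgeR adjusted p = 0.0106) and 4.23 ± 0.87 at 12 days (edgeR adjusted p = 0.00499). Summed over libraries, 423 against 34 reads gave a ratio of 13.5 (95% exact binomial interval 9.52 to 19.8) and 741 against 34 a ratio of 20.1 (14.2 to 29.2), intervals that cover counting error only. Without SP_12D replicate 3 the 12-day change was 3.03 and still passed. SP_12D then lay below SP_3D by 0.71 and passed, in a fit where 14.5% of all genes passed as lower. With all libraries SP_12D lay above SP_3D by 0.48 ± 0.60 and did not pass.

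MUC3A (ENSG00000169894, chr7:100949534-100968347, plus strand), an intestinal membrane mucin with EGF-like domains, rose with little spread. It stood at 4.02, 2.82 and 4.79 CPM in Control_3D, at 11.5, 12.0 and 13.9 in SP_3D and at 17.3, 19.2 and 15.6 in SP_12D. The 3 groups were fully ordered without overlap. The log2 fold change was 1.68 ± 0.17 at 3 days (edgeR adjusted p = 6.74e-07) and 2.16 ± 0.16 at 12 days (edgeR adjusted p = 3.10e-08), past the stricter thresholds at both times, and the calls held in every alternative tried at the 0.05 threshold. The further change from 3 to 12 days, 0.47 ± 0.14, missed the threshold (edgeR adjusted p = 0.0560), and it passed in 5 of 9 alternatives, among them DESeq2 and the GC and length offsets, and without Control_3D replicate 2 or 3 or SP_12D replicate 3. In the last of these fits 13.6% of all genes passed as higher. MUC3A shares 739 exon bases with the antisense gene ENSG00000274993, so reads of the 2 genes may be mixed.

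MUC13 (ENSG00000173702, chr3:124905442-124953819, minus strand), a membrane mucin of the gut and airway surface, was the steadiest of the abundant members. Control_3D libraries held 50.1, 50.3 and 52.5 CPM, those of SP_3D 62.1, 60.2 and 69.5, and those of SP_12D 40.7, 35.3 and 56.1. SP_3D lay above the controls and SP_12D straddled them. The changes against Control_3D were 0.33 ± 0.13 (95% interval 0.07 to 0.59; edgeR adjusted p = 0.0541) and -0.21 ± 0.13 (-0.47 to 0.05; edgeR adjusted p = 0.215), and neither passed. The 3-day change passed in DESeq2, without the filter, with RLE factors, with the replicate block, with only the 2 groups and without SP_12D replicate 2 or 3, and the 12-day change passed, at -0.44, without SP_12D replicate 3. SP_12D was lower than SP_3D by -0.53 ± 0.13 (edgeR adjusted p = 0.0248), the single member of 9 to pass in that comparison, which no longer held when any SP_3D library, SP_12D replicate 1 or SP_12D replicate 2 was left out, or with only the 2 groups in the fit.

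The remaining members were near the limit of detection. MUC4 (ENSG00000145113, chr3:195746765-195811973, minus strand), the membrane mucin that binds the receptor ERBB2, had 11, 6 and 6 reads in Control_3D, 14, 10 and 13 in SP_3D and 3, 6 and 22 in SP_12D, with changes of 0.80 ± 0.50 and 0.28 ± 0.52 that did not pass, the second of which turned to -0.77 without SP_12D replicate 3. MUC20 (ENSG00000176945, chr3:195720884-195741123, plus strand), which interacts with the receptor MET, had 14 reads in each control, 10, 14 and 13 in SP_3D and 10, 12 and 39 in SP_12D, with changes of -0.07 ± 0.43 and 0.38 ± 0.40. The 12-day value of MUC20 likewise changed sign, to -0.36, without that library. MUC20 shares 1851 exon bases with MUC20-OT1 and has a near-identical copy, MUC20P1, so its counts are uncertain. MUC15 (ENSG00000169550, chr11:26559032-26572263, minus strand) had 3 reads over all 18 libraries, 1 in each of 3. A count of 0 allows up to 3 reads, or 0.0671 to 0.212 CPM at these depths.

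Of the neighbours of MUC4 and MUC20 on the long arm of chromosome 3, the kinase gene TNK2 went from 36.1 ± 1.18 to 58.0 ± 2.78 CPM at 3 days and 54.5 ± 4.35 at 12 days (SD, n = 3) and passed as higher, by 0.68 and 0.60. TFRC, the transferrin receptor, changed by -0.17 ± 0.25 and 0.57 ± 0.25, without passing. Among 10 further mucin genes outside the 10 members, 3 were tested at 3 and 12 days. MUC12 passed as higher at 12 days (0.93 ± 0.22; 1.96 ± 0.52 CPM in Control_3D and 3.79 ± 0.33 in SP_12D) and OVGP1, the oviductal glycoprotein, as lower (-0.80 ± 0.23), and neither they nor MUC6 passed at 3 days. MUC7, MUC17, MUC19, MUC21, MUC22, MUCL1 and MUCL3 did not pass the low-count filter in either table.

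**Figure D3:**
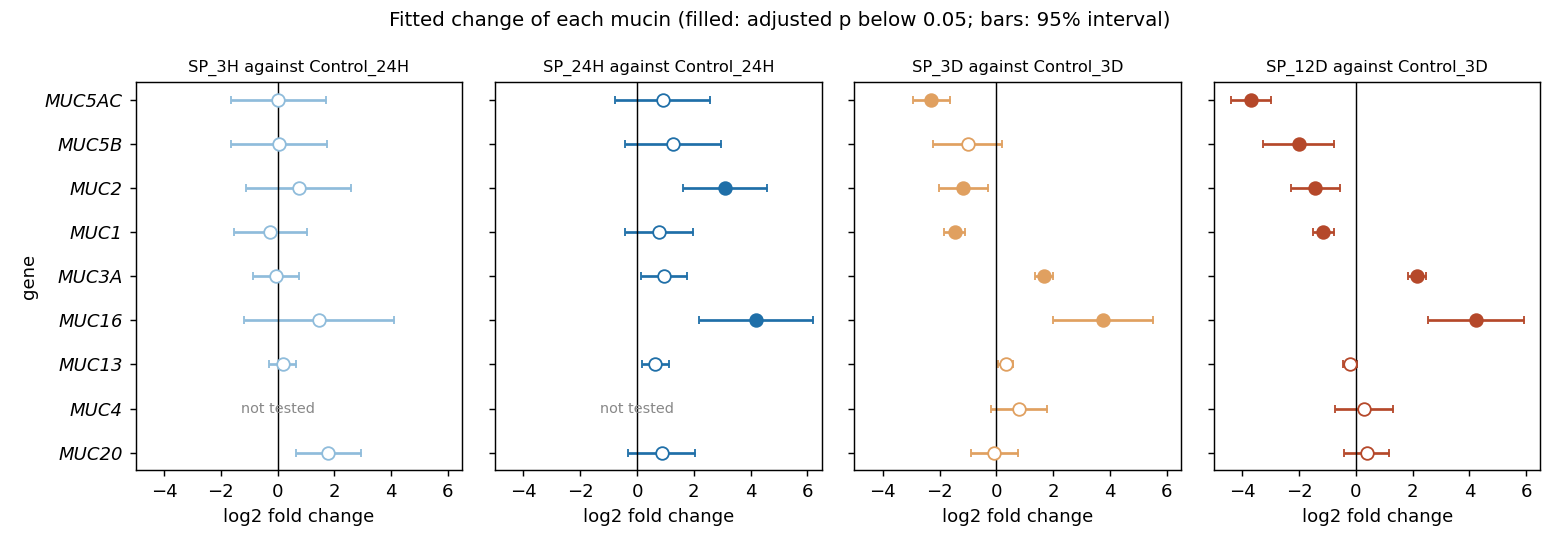
Fitted log2 fold change (points) with its 95% interval from normal quantiles (bars) for 9 mucin genes in the 4 comparisons with untreated cells, filled where the edgeR adjusted p is below 0.05. No point is filled at 3 h, MUC2 and MUC16 are filled on the right of 0 at 24 h, and at 3 and 12 days MUC5AC, MUC2 and MUC1 are filled on the left and MUC3A and MUC16 on the right, with MUC5B filled on the left at 12 days.

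After 24 h of SP no mucin passed as lower. MUC2 and MUC16 passed as higher, 2 of the 8 members tested in SP_24H against Control_24H, where 16.8% of 17377 genes passed as higher, 12% as lower and 0.685% past the stricter thresholds. In the paired fit of those 2 groups alone, 4 members passed as higher (MUC2, MUC16, MUC13 and MUC3A) beside 20.1% of all genes as higher and 18.2% as lower. With GC and length offsets the background was 13.7% higher and 25.1% lower, and the median change of all genes moved from -0.01 to -0.14. No member passed in SP_3H, where the background was 7.39% higher, 4.11% lower and 0% past the stricter thresholds. The count of members that passed was also 0 at 3 h in DESeq2 and in all other alternatives, and 1 member, MUC20, had an unadjusted edgeR p below 0.05 (log2 fold change 1.78 ± 0.58; 3, 1 and 7 reads against 12, 19 and 8; adjusted p = 0.0824).

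MUC2 had 1, 1 and 10 reads in Control_24H and 47, 63 and 40 in SP_24H, and MUC2 reads in SP_3H were 5, 16 and 0. The lowest SP_24H library, at 1.35 CPM, lay above the highest control, at 0.351 CPM. The log2 fold change was 3.10 ± 0.75 (edgeR adjusted p = 0.0139), and the summed reads, 150 against 12, gave a ratio of 8.38 (95% exact binomial interval 4.66 to 16.6). The call was lost without Control_24H replicate 1 (adjusted p = 0.0513) and the change was 2.46 with GC and length offsets. SP_24H also exceeded SP_3H, by 2.36 ± 0.68 (edgeR adjusted p = 0.0389), in a comparison where 20.1% of genes passed, but that call was lost without Control_24H replicate 2, SP_3H replicate 1 or 3, or any SP_24H library (adjusted p up to 0.0986), and with the replicate block (0.0783).

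MUC2 thus rose at 24 h and fell at 3 and 12 days, each time against the control of its own table. In 1 model of all 18 libraries, added after the values were seen, the effect at 3 days was lower than that at 24 h by -4.21 ± 0.91 (edgeR adjusted p = 0.0118), and this held without each library in turn. Of all genes, 6.28% passed that comparison. MUC1 also passed (-2.19 ± 0.63; edgeR adjusted p = 0.0481), a call lost in 15 of 18 fits with 1 library left out, and MUC5AC did not (-3.14 ± 1.03; edgeR adjusted p = 0.0893, or 0.0440 with GC and length offsets, 0.0350 without Control_24H replicate 3 and 0.0284 without SP_3H replicate 3). The level of MUC2 in SP_24H, 1.55 ± 0.30 CPM, stood beside 1.81 ± 0.74 CPM in Control_3D, and in Control_24H it was 0.152 ± 0.172 CPM. The tables were scaled separately, and time in culture and table cannot be told apart.

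MUC16 had 3, 2 and 1 reads in Control_24H, 1, 18 and 0 in SP_3H and 14, 118 and 56 in SP_24H. Every SP_24H library exceeded every control in CPM (0.566 to 2.64 against 0.0351 to 0.159), and SP_3H replicate 2, at 0.584 CPM, reached the lowest SP_24H library. The log2 fold change at 24 h was 4.18 ± 1.02 (edgeR adjusted p = 0.0152), and 188 against 6 reads gave a ratio of 21.0 with a wide interval (9.47 to 57.9). The call was lost without SP_24H replicate 2 (adjusted p = 0.0596) and without the low-count filter (0.0684). SP_24H exceeded SP_3H by 2.73 ± 0.83 (edgeR adjusted p = 0.0479), a call lost without Control_24H replicate 1 or 2, SP_3H replicate 1 or 3, or SP_24H replicate 2 or 3 (adjusted p up to 0.168). MUC16 is the 1 member that passed as higher in SP_24H, SP_3D and SP_12D alike.

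The abundant gel formers could not be resolved at 24 h. MUC5AC was at 12.1, 51.7 and 104.8 CPM in Control_24H, 73.6, 90.8 and 7.29 in SP_3H and 97.6, 132.7 and 87.0 in SP_24H. MUC5B was at 8.05, 46.7 and 76.3 CPM in Control_24H, 48.3, 80.3 and 6.40 in SP_3H and 87.8, 138.8 and 88.8 in SP_24H. The 3 control libraries were far apart for both genes, and the lowest library of each of the first 2 groups was the one low in GC-rich genes. The changes at 24 h were 0.91 ± 0.86 (95% interval -0.77 to 2.59) and 1.26 ± 0.87 (-0.44 to 2.96), and neither passed. They were 0.40 and 0.74 without Control_24H replicate 1 and SP_3H replicate 3, and 0.38 and 0.57 with GC and length offsets. At 3 h they were 0.02 ± 0.85 and 0.04 ± 0.86, and their sign changed between alternatives.

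**Figure D4:**
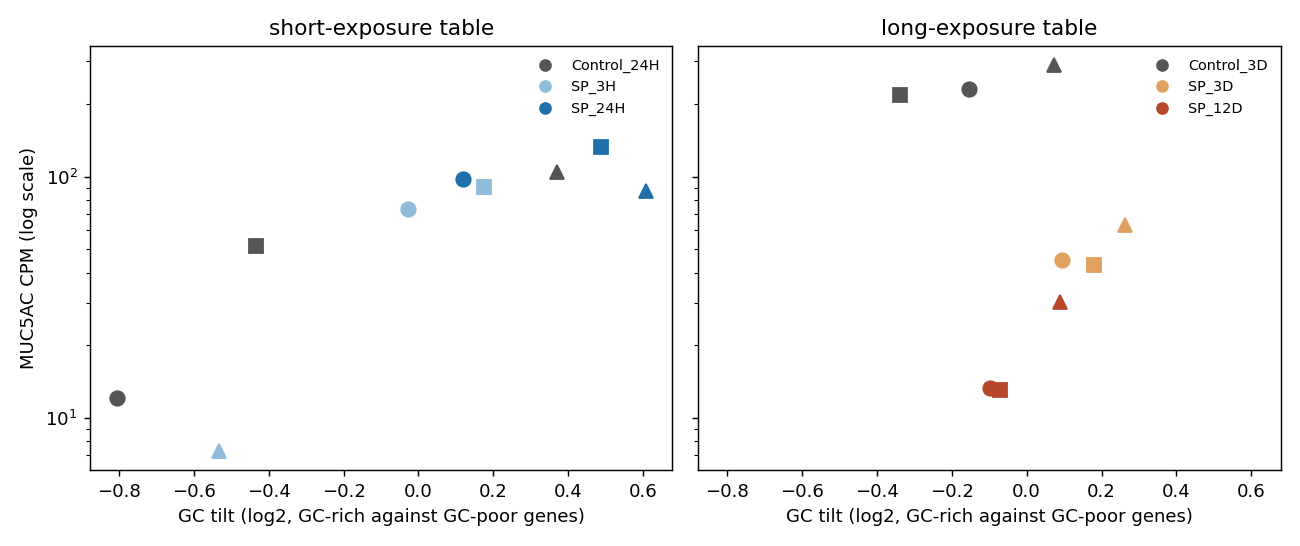
MUC5AC CPM (log axis) against the GC tilt of each library, the log2 deviation of GC-rich relative to GC-poor genes, in the short-exposure table (left) and the long-exposure table (right), shaped by replicate as circle, square and triangle for 1, 2 and 3. On the left the libraries with tilts of -0.81 and -0.53 have the lowest MUC5AC, at 12.1 and 7.29 CPM, and on the right all controls lie above both SP groups, with SP_3D at higher tilts than the controls and SP_12D at tilts near theirs.

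MUC13, the tested member with the lowest GC content, varied less between these libraries than MUC5AC and MUC5B, for a reason that was not tested. It stood at 17.5, 24.5 and 16.8 CPM in Control_24H, 17.9, 30.1 and 18.1 in SP_3H and 28.8, 37.5 and 25.5 in SP_24H. All SP_24H libraries lay above all controls. The change of 0.64 ± 0.24 did not pass (edgeR adjusted p = 0.0763), and it passed with the replicate number as a block (0.64; edgeR adjusted p = 0.00647), without the filter, with GC and length offsets and without SP_3H replicate 2. The block by replicate number rests on same-numbered Control_24H and SP_24H libraries having deviated together, and whether they are pairs was not tested. MUC3A was at 5.77, 13.9 and 18.6 CPM in Control_24H and 20.8, 26.3 and 27.7 in SP_24H, also without overlap, with a change of 0.96 ± 0.41 (edgeR adjusted p = 0.110). It passed in the paired fit of those 2 groups alone (1.07; edgeR adjusted p = 0.0194) and without Control_24H replicate 3 (1.34). MUC1, at 0.318, 1.48 and 1.89 CPM in Control_24H and 1.86, 2.35 and 2.26 in SP_24H, changed by 0.77 ± 0.61 and MUC20 by 0.87 ± 0.60, without passing. MUC4, with 7, 8 and 37 summed reads in Control_24H, SP_3H and SP_24H, was not tested in the short-exposure table.

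Per kilobase of exon the order of the mucins changed with SP. In RPKM summed over the 10 members, Control_3D held 50.7 to 62.4, SP_3D 31.7 to 39.8 and SP_12D 16.7 to 33.3. Of that sum MUC5B made up 39.9% ± 1.10 (SD, n = 3) in Control_3D, MUC13 26.7% ± 2.35 and MUC5AC 25.6% ± 0.94, the last 2 within their spread of each other. In SP_12D, MUC13 made up 57.6% ± 8.38, MUC5B 20.6% ± 11.7, MUC1 7.68% ± 2.11, MUC3A 7.52% ± 3.07 and MUC5AC 4.63% ± 0.53. In SP_3D, MUC13 already made up 52.5% ± 2.31 and MUC5B 31.2% ± 1.32. MUC13 was therefore the leading mucin by length-scaled level in the 3 SP_3D libraries, with at least 49.9%, and in the 3 SP_12D libraries, with at least 48.2%. Its own CPM did not pass as changed against Control_3D at either time. MUC16, for all its fold change, made up 1.01% ± 0.57 in SP_12D, with 44165 exon bases against 3499 for MUC13. In the short-exposure table MUC13 made up 36.8% ± 1.61 in SP_24H and led in its 3 libraries. In Control_24H it made up 50.02% ± 23.0, with 73.6% in replicate 1, low in GC-rich genes, and 27.6% in replicate 3, where MUC5AC led with 34.5%. These shares are descriptions without a test, and they rest on annotated exon lengths that include the tandem repeats, where short reads map poorly.

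The genes whose pattern was most like that of the 3 most abundant members were found by the smaller of the Pearson correlations of log2 CPM over the 9 libraries of each table, among 14085 genes. For MUC5B these were R3HDM2 (0.97), GRAMD1A (0.97) and IFT140 (0.96), for MUC5AC PRRC2B (0.96), NUMA1 (0.96) and KMT2B (0.95), and for MUC13 TMTC2 (0.92), ATP1B1 (0.90) and SNED1 (0.88). The 9 libraries of a table share groups and GC tilt, so these values describe the tables and carry no p.

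Of the genes that build the sugars of mucins, more rose than fell. Of 29 tested O-glycosylation enzymes, 16 passed as higher and 3 as lower at 3 days (25.2% and 23.3% of all genes), and 16 and 2 at 12 days (26.4% and 23.4%), with a median log2 change of 0.65 and 0.50 against -0.02 and -0.0037 for all genes tested. The 4 largest changes were in GALNT16, GALNT3 and GALNT9, transferases that attach the first sugar to serine or threonine, and GCNT1, which branches the chain. GALNT16 went from 1.96 ± 0.18 CPM (SD, n = 3) in Control_3D to 44.3 ± 2.89 in SP_3D and 30.4 ± 6.21 in SP_12D, a log2 change of 4.49 and 3.95. GALNT3 went from 0.259 ± 0.072 to 2.04 ± 0.67 and 4.22 ± 1.56 CPM. GALNT9 went from 2.01 ± 0.81 to 13.97 ± 0.40 and 13.4 ± 3.21 CPM, and GCNT1 from 4.30 ± 0.16 to 18.8 ± 0.325 and 20.9 ± 6.16 CPM. In none of these 4 did an SP library overlap a control. At 24 h, 12 of 27 tested enzymes passed as higher and 4 as lower (16.8% and 12% of all genes), and at 3 h 5 and 1 (7.39% and 4.11%).

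Genes typical of mucous cells fell more often than they rose. Of 12 tested, 7 passed as lower and 1 as higher at 3 days (23.3% and 25.2% of all genes) and 6 and 1 at 12 days (23.4% and 26.4%), with median changes of -0.39 and -0.43. SPDEF, the transcription factor of goblet cell differentiation, fell from 51.9 ± 5.34 CPM in Control_3D to 10.6 ± 0.42 in SP_3D and 9.42 ± 3.05 in SP_12D (log2 -2.30 and -2.45). The trefoil peptide gene TFF1 was rare, at 0.966 ± 0.094, 0.081 ± 0.036 and 0.198 ± 0.110 CPM, and fell by 3.47 and 2.31 on the log2 scale. FCGBP, a mucus protein gene named after its values were seen, was at 114 ± 15.4, 25.9 ± 4.56 and 5.76 ± 4.60 CPM, with log2 changes of -2.14 and -4.25. AGR2, a disulfide isomerase of mucin-making cells likewise named afterwards, was at 385 ± 21.0, 226 ± 6.76 and 201 ± 23.9 CPM (-0.77 and -0.94). Without SP_12D replicate 3, 10 of 13 tested genes of this list passed as lower at 12 days, beside 27.6% of all genes. At 24 h, 4 of 11 tested passed as higher, beside 16.8% of all genes, and SPDEF (-0.47 ± 0.28) and TFF1 (-1.03 ± 0.65) did not pass.

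Of 27 tested regulators linked to mucin genes, 14 passed as lower and 6 as higher at 3 days (23.3% and 25.2% of all genes), and 12 and 11 at 12 days (23.4% and 26.4%), with medians of -0.26 and -0.19. Besides SPDEF, NKX2-1 and GFI1 were among the genes past the stricter thresholds in one or both comparisons. NKX2-1, the lung lineage factor, was close to absent in Control_3D (0.042 ± 0.072 CPM) and reached 1.76 ± 0.25 and 0.777 ± 0.473 CPM. GFI1, a transcriptional repressor, went from 0.255 ± 0.241 to 2.57 ± 0.98 and 1.97 ± 0.165 CPM. At 24 h, 7 of 26 passed as higher and 2 as lower (16.8% and 12% of all genes), and at 3 h 3 and 5 (7.39% and 4.11%). With GC and length offsets these became 7 and 8 at 24 h, where 13.7% and 25.1% of all genes passed, and 3 and 8 at 3 h, where 8.30% and 9.40% did.

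Partners of membrane mucins rose more often than they fell. Of 18 tested, 11 passed as higher and 1 as lower at 3 days (25.2% and 23.3% of all genes) and 9 and 2 at 12 days (26.4% and 23.4%), with medians of 0.42 and 0.33. RDX, radixin, which ties membrane proteins to actin, went from 131 ± 16.6 to 276 ± 12.2 and 361 ± 25.5 CPM. ICAM1, an adhesion receptor that binds MUC1, went from 2.95 ± 0.23 to 6.70 ± 0.44 and 10.6 ± 1.71 CPM. LGALS3, galectin-3, which binds mucin sugars, went from 63.2 ± 1.62 to 115 ± 7.04 and 154 ± 10.5 CPM. At 24 h, 6 passed as higher and 1 as lower (16.8% and 12% of all genes), and at 3 h 3 passed as higher (7.39%). With GC and length offsets the counts at 3 days were 16 higher and 3 lower for the enzymes, 1 and 9 for the mucous cell genes, 6 and 16 for the regulators and 9 and 4 for the partners (20.6% and 34.7% of all genes). At 12 days they were 15 and 5, 1 and 8, 10 and 15, and 7 and 3 in the same order (21.9% and 33.2%), and at 24 h 9 and 4 for the enzymes, 3 and 1 for the mucous cell genes and 7 and 3 for the partners.

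**Figure D5:**
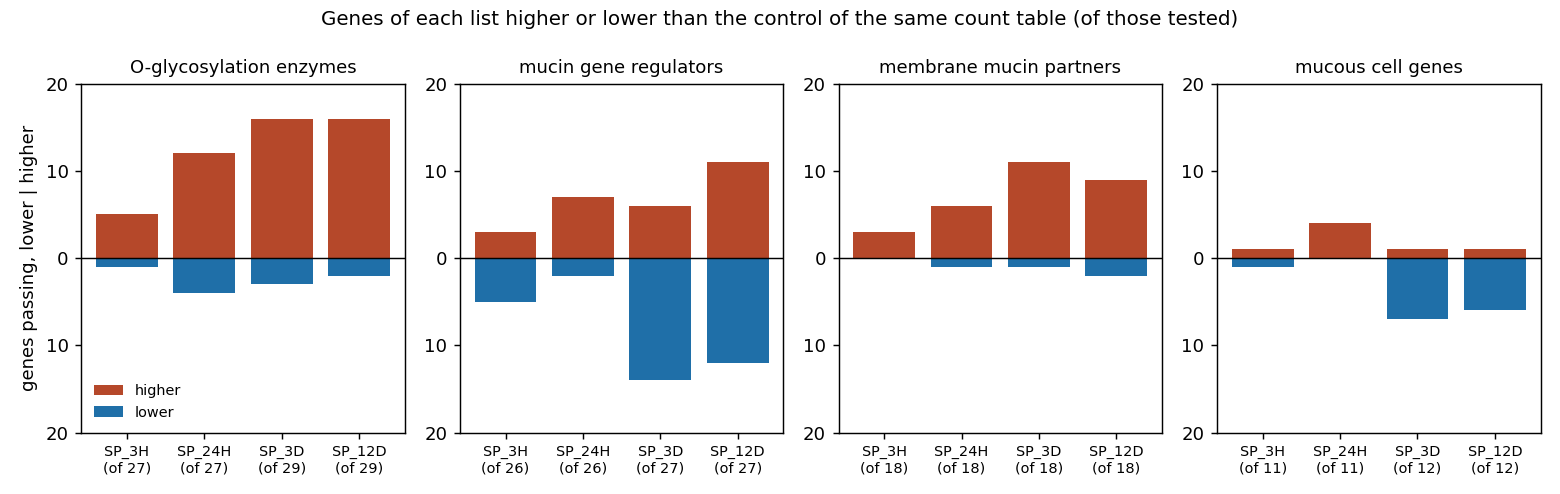
Number of genes of 4 lists that passed as higher (red, up) or lower (blue, down) than the control of the same count table, with the number tested under each bar. O-glycosylation enzymes have 16 higher at both 3 and 12 days, and mucous cell genes have 7 and 6 lower.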

How the data were processed

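RNA of 18 A549 samples, 3 per group, was sequenced as paired-end libraries. The authors deposited raw read counts per gene in 2 tables of 9 samples each, made, per the labels and the study's methods, with FastQC, STAR 2.7.9a and featureCounts on GRCh38. Neither the strand setting of the counting nor its treatment of multi-mapping reads is given in the sources used here. No column of another sample was present, and columns were matched to samples by their names. Total counts were 14187401 to 43765330 per library, which set the counting precision, and the exact binomial intervals and the floors cover counting error only.

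Genes were named from GENCODE 44 (99.8% of tested genes had GC content and length). The tests used edgeR 4.0.16 under R 4.3.3. After filterByExpr with a minimum count of 10 and TMM scaling, each table was fitted over its 9 libraries with the robust quasi-likelihood test, with Benjamini-Hochberg adjustment over all tested genes, 17775 in the long-exposure and 17377 in the short-exposure table. A gene passed at an adjusted p below 0.05. Each SE of a fitted change is its absolute value divided by the square root of its F statistic. The 95% intervals of fitted changes use normal quantiles of this SE and are narrower than the F test would give. The stricter thresholds asked for an adjusted p below 0.0001 together with at least a 2-fold change. The fit was tested on simulated data. Per-library values are CPM with TMM-scaled library sizes, and RPKM adds the exon length. The MUC5AC to MUC5B ratio was compared by two-sided exact permutation tests.

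The members and the gene lists were chosen with earlier results of these data known. All 10 members are named. Of each list, at most the 4 genes with the largest changes past the stricter thresholds in SP_3D or SP_12D are named, and every gene of the list of other mucins and of the neighbours on chromosomes 3 and 11. The values of 1 gene that this rule names are not reported here. The 3 genes most alike are named for the 3 members with the highest mean log2 CPM. The libraries carry replicate numbers. The deviations of same-numbered Control_24H and SP_24H libraries correlated at 0.499, 0.170 and 0.504, and at 0.332, 0.189 and 0.317 after GC and length correction. Differently numbered libraries were not compared, so whether the numbers pair these libraries was not tested. The values given are from the fit without the block, and those with it stand beside them where a call changes. In the other comparisons at least 1 correlation was below 0.1. Alternatives were DESeq2 1.42.0, RLE and upper-quartile factors, no filter, only the 2 groups compared, the replicate block, GC and length offsets, the stricter thresholds and each library left out in turn.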

Additional observations from a re-analysis of the deposited data

Results flagged for a closer look

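A difference between the effects of 2 times against untreated cells, or between 2 exposure times, passed edgeR's test for the following values. The log2 level in SP_24H exceeded that in SP_3H by 2.36 for MUC2 and by 2.73 for MUC16. That in SP_12D was below that in SP_3D by -0.53 for MUC13. The log2 effect at 3 days minus that at 24 h, each against its own control, was -4.21 for MUC2 and -2.19 for MUC1. The adjusted p-values and the libraries on which these calls rest stand in the report.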

How the results depend on the processing

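The number of members that passed was 2 in SP_24H against Control_24H and became 4 with the replicate block in the 2 groups alone, 0 at the stricter thresholds and 1 to 3 with 1 library left out. It was 5 in SP_3D (2 at the stricter thresholds, 4 to 7 with 1 library left out) and 6 in SP_12D (3 and 4 to 7). In SP_24H against SP_3H it was 2, and became 1 without the filter, 1 without both Control_24H replicate 1 and SP_3H replicate 3 (a choice made after seeing the data, as was the model of all 18 libraries), 0 at the stricter thresholds and 0 to 3 with 1 library left out, and with the replicate block the 2 were MUC13 and MUC16 in place of MUC2 and MUC16. In SP_12D against SP_3D it was 1, and became 3 in DESeq2, 2 without the filter, 2 with the replicate block, 2 with the block in the 2 groups alone, 3 with GC and length offsets, 3 with those and the block, 0 at the stricter thresholds and 0 to 6 with 1 library left out. The 6 came without SP_12D replicate 3, where 13.6% of all genes passed as higher and 14.5% as lower. The number of members that passed was 0 in SP_3H under every alternative, from 0 to 0 with 1 library left out. Of 1101 log2 fold changes under an alternative, 959 kept direction and side of the threshold, 50 newly passed, 57 no longer passed and 35 changed sign, and the cause was not tested. The sign changes were in values that did not pass, but without SP_12D replicate 3 the reversed MUC16 difference between SP_12D and SP_3D, -0.71, did. In SP_3H, MUC5AC (0.02) became -0.00086 in DESeq2, -0.0050 with RLE factors, -0.014 with upper-quartile factors, -0.023 without the filter, -0.0073 with only the 2 groups, -0.25 with GC and length offsets and -0.31 with those and the block. MUC5B became -0.30 with the offsets and -0.35 with those and the block, and MUC3A 0.0096 with the replicate block and 0.0081 with the block in the 2 groups alone. With 1 library left out, values in SP_3H ranged from -1.13 to 0.25 for MUC1, -0.37 to 2.39 for MUC2, -0.49 to 0.84 for MUC5AC, -0.70 to 0.72 for MUC5B, -0.12 to 0.36 for MUC13, -1.64 to 2.05 for MUC16 and -0.42 to 0.32 for MUC3A. They ranged from -0.19 to 0.049 for MUC20 in SP_3D, from -0.77 to 0.58 for MUC4 and -0.36 to 0.64 for MUC20 in SP_12D, and between SP_12D and SP_3D from -1.15 to 0.044 for MUC2, -0.71 to 0.85 for MUC16 and -0.29 to 0.71 for MUC20. The 3-day minus 24-hour difference of MUC16 ranged from -0.89 to 0.045.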
